A study of Mus musculus with 12 samples.

Results

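The 10 genes described here encode leukocyte adhesion integrins, and they were picked by symbol from the 24221 gene rows of the authors' deposited table. They are the beta-2 chain Itgb2 with its 4 alpha chains Itgam, Itgax, Itgal and Itgad, the beta chains Itgb1 and Itgb7, and the alpha chains Itga4, Itga5 and Itga6. Each symbol had a row, each row had an adjusted p-value, and 9 of the 10 averaged 100 normalised reads or more. The table compares mouse acute myeloid leukaemia cells of C57BL/6 background that carry the MLL-AF9 fusion and loxP-flanked alleles of Riok2 (Riok2fl/fl), 72 h after hydroxytamoxifen (OHT, 3 samples) or its solvent ethanol (EtOH, 3 samples) was given. Both groups carry the floxed alleles, the recombinase and the promoter that drives it are not given here, and no group received OHT without the floxed alleles, so the effect of OHT itself and that of losing Riok2 cannot be told apart. A further 3 samples with 1 µM of a RIOK2 inhibitor (RIOK2i) and 3 with DMSO, also at 72 h, are not analysed here.

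Integrins are cell surface receptors made of 1 alpha and 1 beta chain. The beta-2 family is made by leukocytes: CD11a/CD18 (LFA-1, Itgal with Itgb2) binds ICAMs on other cells, CD11b/CD18 (Mac-1, Itgam with Itgb2) also binds fibrinogen and complement-coated particles, and CD11c/CD18 (Itgax) and CD11d/CD18 (Itgad) are further members of macrophages, dendritic cells and other leukocytes. The alpha-4 chain pairs with beta-1 as VLA-4, a receptor for VCAM1 and fibronectin that holds blood progenitors in the marrow, or with beta-7 as a gut homing receptor for MAdCAM1, while alpha-5 beta-1 binds fibronectin and alpha-6 beta-1 binds laminins. Integrins switch from a resting to a binding state when talin and kindlins attach to the beta tail.

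The deposited table holds a base mean (reads divided by a library size factor and averaged over libraries), the log2 fold change, the standard error of that change and p-values, and it has no value per sample. Base means summed to 20307732 normalised reads, and the size factors of the 6 libraries, recovered from genes with few reads, ran between 0.697 and 1.88. The table does not name the numerator of its fold change. The targeted gene Riok2 had a log2 fold change of -3.60 ± 0.20 (SE) in the authors' deposited table, so a positive fold is taken to mean higher in OHT, and only this gene sets that direction. Of 13814 genes tested, 6752 had an authors' adjusted p-value under 0.05, which is 48.9%. Of all tested genes 25.5% passed as higher in OHT and 23.4% as lower. Separate cultures are not stated for the replicates, so these p-values measure the spread between the samples, which may be technical. The pan-leukocyte gene Ptprc, with a base mean of 9796 in the authors' deposited table, and the myeloid factor gene Spi1, with 8813, were well covered, and the lymphoid genes Cd3e, Cd8a and Ms4a1 were listed at 0.

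Of the 10 integrin genes 6 were higher in OHT and 0 were lower, at the authors' adjusted p-value under 0.05, beside 25.5% and 23.4% of all genes tested. Their median log2 fold change was 0.71, beside 0.05 over all tested genes. The beta-2 family gave 4 higher of 5 (Itgb2, Itgam, Itgax and Itgal, median log2 fold change 1.93). The beta-1 and beta-7 group gave 2 higher of 5 (Itgb7 and Itga5, median 0.21). The 4 genes without a call were Itgad, Itgb1, Itga4 and Itga6. Each p-value comes from one comparison of the 6 libraries, and no test of the 2 families against each other was made.

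**Figure D1:**
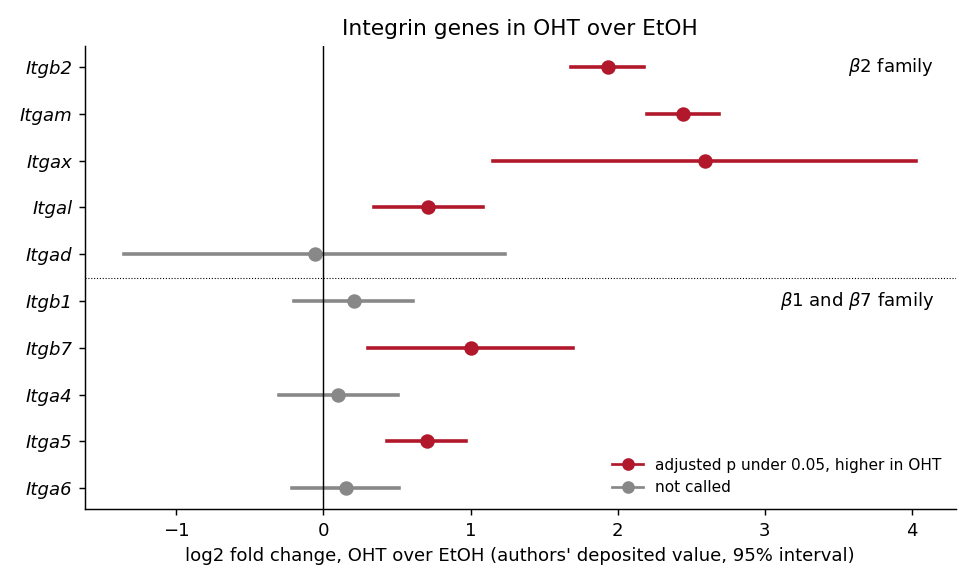
Log2 fold change, OHT over EtOH, of the 10 integrin genes (points) with 95% intervals from the authors' standard error (lines). Itgb2 and Itgam have narrow intervals at 1.93 and 2.44, Itgax has a wide one from 1.16 to 4.03, and the intervals of Itgad, Itgb1, Itga4 and Itga6 cross 0.

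The common beta-2 chain rose together with the Mac-1 alpha chain. Itgb2 (ENSMUSG00000000290.13, GRCm38 chromosome 10, 77530252 to 77565708, plus strand) averaged 21186 normalised reads over the libraries of the authors' deposited table, which lists a log2 fold change of 1.93 ± 0.13 (SE) at an adjusted p of 1.2e-50. Itgam (ENSMUSG00000030786.18, chromosome 7, 128062640 to 128118491, plus strand) averaged 19357 normalised reads over the libraries of the authors' deposited table, which lists a log2 fold change of 2.44 ± 0.12 (SE) at an adjusted p of 6.1e-84. By the size of the score, fold over standard error, Itgam was rank 4 and Itgb2 rank 31 of all genes. On a linear scale these folds are 5.44 (95% interval 4.60 to 6.43) for Itgam and 3.81 (3.21 to 4.52) for Itgb2, so the intervals of the alpha and the beta chain do not overlap. The other alpha chains of the family did not move as one.

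Itgal, the LFA-1 alpha chain, rose less. Itgal (ENSMUSG00000030830.18, chromosome 7, 127296260 to 127335138, plus strand) averaged 4026 normalised reads over the libraries of the authors' deposited table, which lists a log2 fold change of 0.71 ± 0.19 (SE) at an adjusted p of 0.00061. Its 95% interval, 0.34 to 1.09 on the log2 scale, lies wholly below those of Itgb2 (1.68 to 2.18) and Itgam (2.20 to 2.68).

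Itgax had the highest point estimate and the least certain one. Itgax (ENSMUSG00000030789.9, chromosome 7, 128129547 to 128150657, plus strand), whose protein CD11c is a common marker of dendritic cells and some macrophages, averaged 1355 normalised reads over the libraries of the authors' deposited table, which lists a log2 fold change of 2.59 ± 0.73 (SE) at an adjusted p of 0.0013. Its linear fold of 6.02 has a 95% interval of 2.23 to 16.3, which covers the fold of Itgam as well as that of Itgb2. With a Bonferroni adjustment over the tested genes the calls of Itgax, Itgal and Itgb7 were lost (adjusted p = 1 each) and those of Itgb2, Itgam and Itga5 held.

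Itgad was barely expressed. Itgad (ENSMUSG00000070369.13, chromosome 7, 128154376 to 128223816, plus strand) averaged 12.7 normalised reads over the libraries of the authors' deposited table, which lists a log2 fold change of -0.06 ± 0.66 (SE) at an adjusted p of 0.95. The interval of its linear fold, 0.392 to 2.35, leaves room for a change of about the size of that of Itgal or Itga5 in either direction, so a change was not detectable at this depth. Cox6a2, a muscle-type subunit of cytochrome oxidase, lies inside the span of Itgad on the opposite strand and fell by 3.58 ± 0.55 on the log2 scale in the authors' deposited table. The strand setting of the counting is not stated, so reads from the 2 genes may not be told apart.

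The standard error of Itgax stood out for its level of expression. Among the 200 tested genes nearest to it in base mean, 0 had a larger standard error, and their median was 0.16. Of the 4867 tested genes that averaged 1000 normalised reads or more, 51 (1.05%) had a standard error of at least 0.5, and 47 of those 51 had a fold above 0. Of the 51, 23 were called higher and 3 lower, beside 25.5% and 23.4% of all tested genes. The share of folds above 0 among all 4867 genes was not counted. At or above the error of Itgax stood 8 genes at that minimum, Itgax included. The others were F2r, Hdc, Mmp12, Cdh1, Anpep, Mgl2 and the platelet integrin chain Itga2b, named by this count after their values were seen. The largest standard error anywhere in the table was 0.75, for abundant and rare genes alike, so the deposited folds appear to be pulled towards 0 by a prior, and those of genes near this limit most. Itgb7 also had a wide error for its level, with 5 of its 200 nearest genes above it and a median of 0.17 among them. For Itgb2 and Itgam 163 and 165 of the nearest 200 genes had a larger error.

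**Figure D2:**
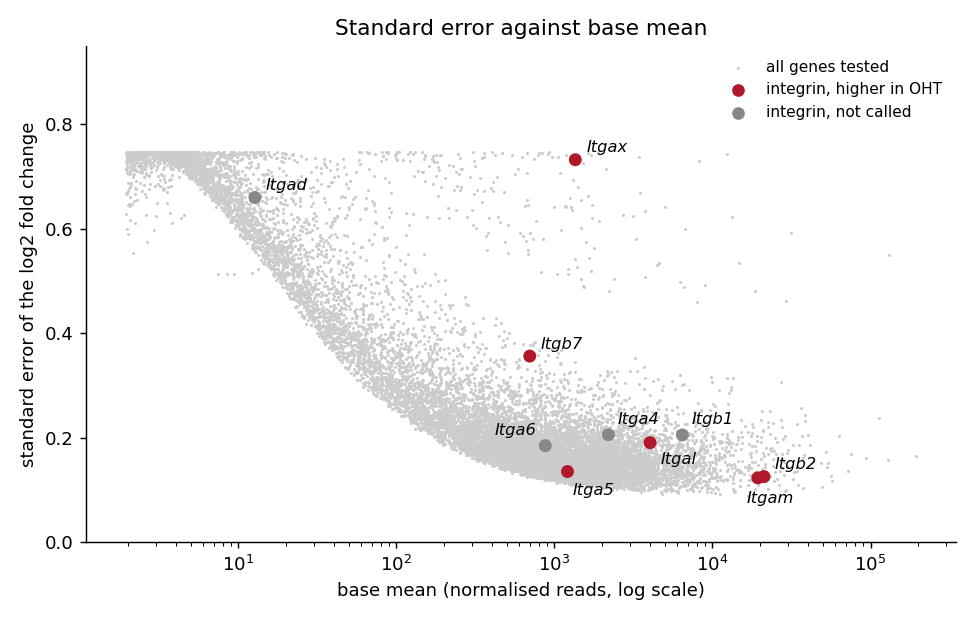
Standard error of the log2 fold change against base mean (normalised reads, log scale) for the genes tested (small points) and the 10 integrin genes (large points). Itgax lies at 0.73, above the 200 genes nearest to it in base mean, Itgb7 at 0.36 lies above most of them, and Itgam and Itgb2 lie at 0.12 and 0.13.

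Values per library could be recovered for integrin genes with few reads only. A low base mean is a sum of whole reads over size factors, which were fitted here, and for 6 integrin genes exactly 1 set of whole reads fits it. The sign of the fold of genes with 1 read shows on which side of the comparison a library lies, but not which sample it is. Itga2, an alpha chain of platelets and other cells that bind collagen, had 4, 0 and 29 reads in the libraries of the OHT side with size factors 1.88, 1.01 and 0.697, and 1, 0 and 3 reads in those of the EtOH side with size factors 1.11, 0.870 and 0.783. Itga9 had 9, 0 and 13 reads in the same OHT side libraries, and 0, 1 and 4 in those of the EtOH side. In both genes the library with the size factor 0.697 held the most reads and another library of its side held 0. Itga8 ran otherwise, with 30, 9 and 0 reads on the OHT side and 3, 1 and 2 on the EtOH side. For Itgad 2 sets of reads fit its base mean equally: 14, 19 and 7 on the OHT side with 10, 27 and 0 on the EtOH side, or 7, 7 and 19 on the OHT side with 17, 9 and 10 on the EtOH side. In both sets the libraries of the 2 sides overlap. Whether 1 library carries the rise of Itgax was not tested, since its reads per library cannot be recovered.

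Among the beta-1 and beta-7 genes, the fibronectin receptor chain and the beta-7 chain rose, and the others stayed without a call. Itga5 (ENSMUSG00000000555.8, chromosome 15, 103344286 to 103366763, minus strand), the alpha chain of the classical fibronectin receptor, averaged 1209 normalised reads over the libraries of the authors' deposited table, which lists a log2 fold change of 0.70 ± 0.14 (SE) at an adjusted p of 1.4e-06. Itgb7 (ENSMUSG00000001281.10, chromosome 15, 102215995 to 102231944, minus strand), the partner of alpha-4 in gut homing, averaged 698 normalised reads over the libraries of the authors' deposited table, which lists a log2 fold change of 1.00 ± 0.36 (SE) at an adjusted p of 0.012. The call of Itgb7 ended at a threshold of 0.01. Its linear fold of 2.00 had a 95% interval of 1.23 to 3.25, which holds the whole interval of Itga5 (1.35 to 1.95).

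Itgb1, the most abundant of this group, was nearly level. Itgb1 (ENSMUSG00000025809.15, chromosome 8, 128685654 to 128733200, plus strand) averaged 6450 normalised reads over the libraries of the authors' deposited table, which lists a log2 fold change of 0.21 ± 0.21 (SE) at an adjusted p of 0.42. Itga4 (ENSMUSG00000027009.18, chromosome 2, 79255426 to 79333123, plus strand), the VLA-4 alpha chain, averaged 2194 normalised reads over the libraries of the authors' deposited table, which lists a log2 fold change of 0.10 ± 0.21 (SE) at an adjusted p of 0.71. Cerkl overlaps Itga4 on the opposite strand, with a base mean of 61.2 in the authors' deposited table. Itga6 (ENSMUSG00000027111.15, chromosome 2, 71745616 to 71858416, plus strand), a laminin receptor chain, averaged 874 normalised reads over the libraries of the authors' deposited table, which lists a log2 fold change of 0.15 ± 0.18 (SE) at an adjusted p of 0.52. The linear folds had 95% intervals of 0.872 to 1.52 for Itgb1, 0.811 to 1.42 for Itga4 and 0.864 to 1.43 for Itga6. A missed threshold does not show equal levels, but the upper bounds of these 3 genes lie below the lower bounds of Itgb2, Itgam and Itgax.

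Levels can be set beside each other per kb of exon, with group means implied by the base mean and the fold when each group has 3 libraries. Itgb2 led with an implied 10999 normalised reads per kb in OHT and 2884 in EtOH. Itgam followed with 6509 in OHT and 1197 in EtOH. Itgb1 came next, with 1693 in OHT and 1468 in EtOH, and thus lay above Itgam in EtOH and below it in OHT. Itgal had 762 reads per kb in OHT and 464 in EtOH, Itgax had 484 in OHT and 80.3 in EtOH, Itgb7 had 336 in OHT and 168 in EtOH, and Itga5 had 303 in OHT and 187 in EtOH. Itga4 (162 in OHT and 151 in EtOH) and Itga6 (102 in OHT and 91.8 in EtOH) were lower, and Itgad stood at 2.76 in OHT and 2.88 in EtOH. The table holds no spread of levels over samples, so neighbours in this order were not compared. With the longest transcript in place of all exons as the length, Itga5 and Itgb7 changed places and the other ranks by base mean per kb held. The levels themselves moved: the base mean per kb of Itga6 was 203 by the longest transcript against 96.9 by all exons, and that of Itga4 was 225 against 157. By the longest transcript Itga4 (217) also lay above Itga5 (209) in EtOH.

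**Figure D3:**
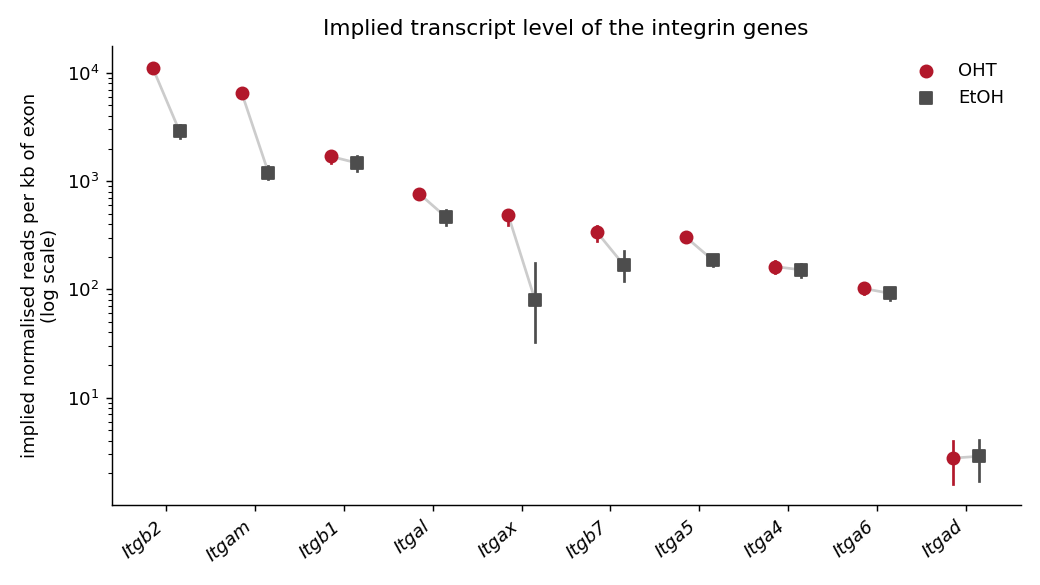
Normalised reads per kb of exon implied for OHT (circles) and EtOH (squares) by the authors' base mean and fold, on a log scale; vertical lines show the values at the ends of the 95% interval of the fold. Itgb2, Itgam and Itgax are separated most between OHT and EtOH, while Itgb1, Itga4 and Itga6 are nearly level. The points of Itgad also lie close, but its fold interval of 0.392 to 2.35 is wide and a change was not detectable.

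The make-up of the alpha chain transcripts shifted towards Itgam. Summed per kb, the 4 beta-2 alpha chains had 7757 normalised reads in OHT and 1744 in EtOH, a ratio of 4.45, beside 3.81 for their partner Itgb2. Itgam made up 83.9% of that alpha chain sum in OHT and 68.6% in EtOH, Itgal 9.82% in OHT and 26.6% in EtOH, Itgax 6.24% in OHT and 4.61% in EtOH, and Itgad 0.0356% in OHT and 0.165% in EtOH. The 3 alpha chains Itga4, Itga5 and Itga6 summed to 568 reads per kb in OHT and 430 in EtOH (ratio 1.32). With the longest transcript as length this sum was 785 in OHT and 617 in EtOH (ratio 1.27), and the beta-2 alpha chain ratio was 4.33. Itgb1 and Itgb7 summed to 2029 in OHT and 1636 in EtOH (ratio 1.24). Of the transcripts of the 3 beta chains, Itgb2 made up 84.4% in OHT and 63.8% in EtOH, Itgb1 13.0% in OHT and 32.5% in EtOH, and Itgb7 2.58% in OHT and 3.71% in EtOH. These shares are descriptions without an error, since they rest on the fitted folds. The fold of Itgax, which appears to be pulled towards 0, carries into its shares. In bulk RNA, fewer cells that express a gene and less RNA of it per cell cannot be told apart.

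The genes of the beta-2 alpha chains lie on chromosome 7, all read in the same direction. Itgam ends 11.1 kb before Itgax starts, and Itgax ends 3.72 kb before Itgad starts, while Itgal lies 728 kb away with 31 tested genes in between. The window from Itgal to Itgad, with the next 2 tested genes by start position on each side, held 35 genes that are not integrins. Of these 5 were higher, 10 were lower and 20 had no call. Cox6a2, counted on the Itgad side, lies inside the span of Itgad. Of all tested genes 25.5% were higher and 23.4% lower. Next to Itgam, the inflammasome adaptor gene Pycard rose by 0.46 ± 0.14 on the log2 scale in the authors' deposited table. Around all 10 integrins, 31 nearest neighbours (2 tested genes a side where there were as many) held 8 higher, 11 lower and 12 without a call, with a median log2 fold change of -0.23. The neighbours' share of higher calls lay near the 25.5% of all tested genes. Some neighbours lay far off, such as Rbm34 at 1715 kb from Itgb1. The 4 neighbours of Itga5 (Zfp385a, Gpr84, Nckap1l and Pde1b) were higher. Nckap1l, which encodes the haematopoietic WAVE complex subunit HEM1, had 1.34 ± 0.16 in the authors' deposited table. Next to Itgb1 lies Nrp1, a neuropilin gene, at 2.38 ± 0.45 in the authors' deposited table.

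**Figure D4:**
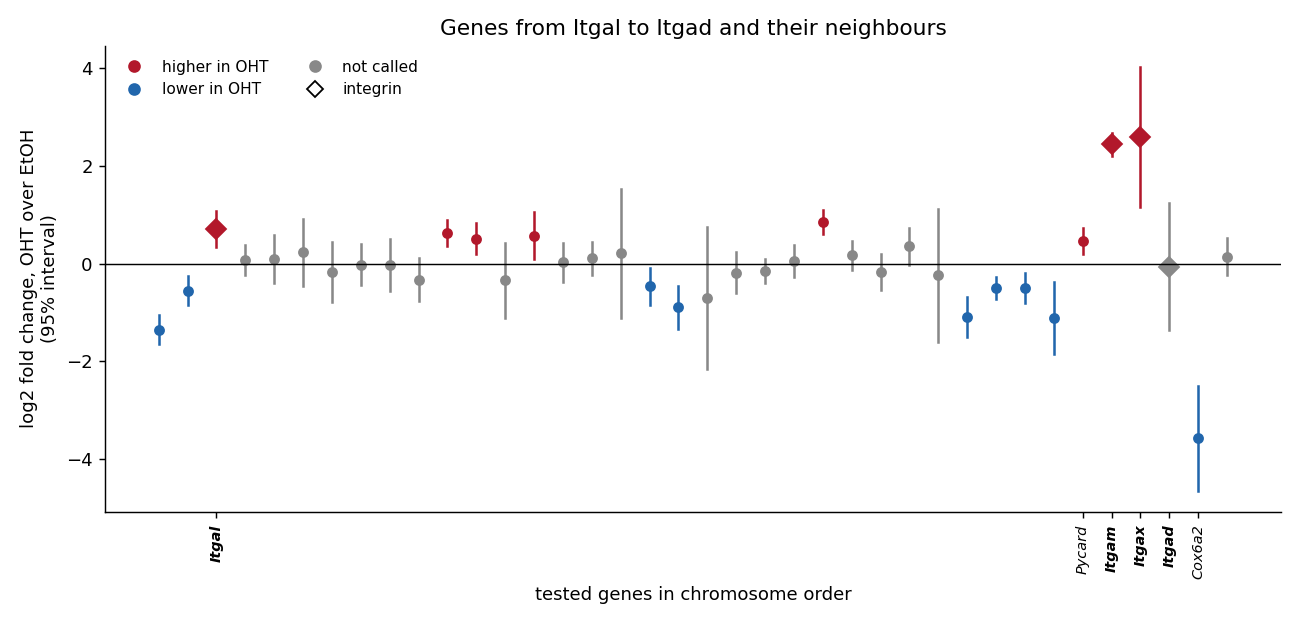
Log2 fold change, OHT over EtOH, with 95% intervals for tested genes between the neighbours of Itgal and those of Itgad, in chromosome order and not to scale in distance; the integrins, Pycard and Cox6a2 are named. Itgam and Itgax stand above 2 side by side, Itgal is at 0.71, Itgad is near 0 and Cox6a2, inside the span of Itgad, is at -3.58.

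Promoter windows of 300 bases (250 before and 50 from the start site on, GRCm38.p6, from RefSeq) were at hand for 6 of the 10 genes: Itgam, Itgax, Itgb7, Itga4, Itga5 and Itgb1. The 4 below are shown because Itgam and Itgax are neighbours that both rose while Itga4 and Itgb1 had no call. Capitals mark matches on either strand to PU.1 (GAGGAAG), an ETS core (CCGGAAG), AP-1 (TGANTCA), C/EBP (TTNNGNAA), RUNX (TGTGGT), the SP1 GC box (GGGCGG) or a TATA box (TATAAA), and some matches overlap. The windows are chr7:128062390-128062689 for Itgam, chr7:128129300-128129599 for Itgax, chr2:79255176-79255475 for Itga4 and chr8:128685404-128685703 for Itgb1, all on the plus strand.
Itgam: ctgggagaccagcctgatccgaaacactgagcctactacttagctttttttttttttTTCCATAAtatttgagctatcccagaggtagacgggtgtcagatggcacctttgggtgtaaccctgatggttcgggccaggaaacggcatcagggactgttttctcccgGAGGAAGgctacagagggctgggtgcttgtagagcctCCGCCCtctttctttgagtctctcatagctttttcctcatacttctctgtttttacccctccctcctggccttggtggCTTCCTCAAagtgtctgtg
Itgax: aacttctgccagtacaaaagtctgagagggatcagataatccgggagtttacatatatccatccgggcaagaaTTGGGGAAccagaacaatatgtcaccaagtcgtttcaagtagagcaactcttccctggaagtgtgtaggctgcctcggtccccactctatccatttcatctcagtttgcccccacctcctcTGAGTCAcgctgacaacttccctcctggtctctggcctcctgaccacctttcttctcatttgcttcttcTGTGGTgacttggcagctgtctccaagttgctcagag
Itga4: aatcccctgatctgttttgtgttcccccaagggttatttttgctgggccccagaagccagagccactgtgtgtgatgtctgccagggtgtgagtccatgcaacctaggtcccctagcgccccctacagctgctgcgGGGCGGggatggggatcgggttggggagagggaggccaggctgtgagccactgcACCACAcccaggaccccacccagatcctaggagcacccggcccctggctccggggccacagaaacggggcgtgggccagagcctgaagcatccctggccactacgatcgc
Itgb1: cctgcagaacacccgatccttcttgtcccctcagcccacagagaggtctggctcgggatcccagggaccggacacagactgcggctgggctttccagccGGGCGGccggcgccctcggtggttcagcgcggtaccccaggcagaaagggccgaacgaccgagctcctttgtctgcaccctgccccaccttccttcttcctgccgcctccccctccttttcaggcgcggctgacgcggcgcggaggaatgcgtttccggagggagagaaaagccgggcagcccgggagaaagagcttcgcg

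The Itgam window held GAGGAAG at -84 to -78 from the start site and its reverse complement at 32 to 38, where it overlaps a C/EBP match at 33 to 40, together with another C/EBP match at -193 to -186 and a GC box at -47 to -42. The Itgax window held an AP-1 match at -56 to -50, a C/EBP match at -177 to -170 and a RUNX match at 14 to 19. The Itga4 window held a GC box at -114 to -109 and a RUNX match at -60 to -55, and the Itgb1 window held a GC box at -151 to -146. Of the 6 windows 2 (Itgam and Itgb7) held GAGGAAG, beside 13.6% of 32851 RefSeq promoter windows of the same length. AP-1 was in 1 of the 6 beside 7.81%, C/EBP in 3 beside 40.7%, RUNX in 2 beside 16.8% and the GC box in 4 beside 35.7%. The ETS core (8.86% of all windows) and the TATA box (13.6%) matched 0 of the 6. These are matches of letters and say nothing of binding.

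The lists of genes that work with integrins held more higher than lower calls. The 7 lists of subunits, activators, inhibitors, adhesion and signalling proteins, ligands, tetraspanins and other adhesion molecules hold 124 genes. Of the 106 tested, 54 were higher and 3 lower, beside 25.5% and 23.4% of all tested genes. Their median log2 fold change was 0.62, beside 0.05 over all tested genes. Of the genes listed here as neutrophil markers, 13 of 13 tested were higher too. Neutrophil granule enzyme genes outside that list fell, among them Mpo and Elane, which are listed as leukaemia and progenitor markers. The part of these cell identities in the rises was not tested.

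Of the 16 listed other integrin subunits 11 were tested, and 1 was called, beside 48.9% of all tested genes called in either direction. This was Itgav, a chain of vitronectin receptors, listed at 0.86 ± 0.18 on the log2 scale (SE), with an adjusted p of 1.05e-05, in the authors' deposited table. Itgb5, which had the highest base mean within the list (1530), had 0.61 ± 0.29 (adjusted p = 0.069) by the authors' deposited table. The tested members of this list had a median standard error of 0.69 on the log2 scale. The list leaves out Itgb2l, a paralogue of Itgb2, which is named after its values were seen. With a base mean of 5953, above that of Itgb5, Itgb2l rose by 2.35 ± 0.19 on the log2 scale (SE) at an adjusted p of 8.1e-34 in the authors' deposited table. Itgb8 was listed at 0, and Itgb3 had a fold change of 1.18 ± 0.72 without a p-value in the authors' deposited table.

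The proteins that switch integrins on gave 11 higher and 0 lower of 18 tested (median log2 fold change 0.47). Over all tested genes the shares were 25.5% and 23.4%. Fyb, the adaptor ADAP, had 2.56 ± 0.22, and the kindlin-2 gene Fermt2 had 2.08 ± 0.75 at a low base mean, both in the authors' deposited table. Talin, Tln1, whose head binds the beta tail, had the highest base mean (15269) and rose by 1.32 ± 0.20 in the authors' deposited table. Leukocytes rely on kindlin-3 and on the RAP1 exchange factor CalDAG-GEFI, so their genes are named here with their values known: Fermt3 had 0.40 ± 0.12 (adjusted p = 0.0033) and Rasgrp2 had -0.09 ± 0.21 (adjusted p = 0.75) by the authors' deposited table.

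The list of inhibitors of integrin activation, which also takes in regulators of inhibitors, gave 3 higher and 1 lower of 9 (median 0.27). This share of higher calls is near the 25.5% of all tested genes, and 1 higher and 0 lower remained with a Bonferroni adjustment. Filamin A, Flna, which competes with talin for the beta tail, rose by 1.43 ± 0.23 with a base mean of 38304 in the authors' deposited table. The RAP1 GTPase-activating protein gene Sipa1 rose by 0.69 ± 0.20, and its relative Sipa1l1 fell by 0.53 ± 0.20 in the authors' deposited table.

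Adhesion and signalling genes downstream of integrins gave 21 higher and 0 lower of 29 tested (median 1.13). All tested genes gave 25.5% higher and 23.4% lower. The SRC family kinase genes Fgr, a myeloid kinase that beta-2 integrins signal through, and Src rose by 2.92 ± 0.19 and 2.30 ± 0.35 in the authors' deposited table. Cd47, the integrin-associated protein and the most abundant of the list, had -0.29 ± 0.13 (adjusted p = 0.060) by the authors' deposited table.

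Ligand genes measured in the same samples gave 7 higher and 1 lower of 16 tested, beside 25.5% and 23.4% of all tested genes. Of the 25 on the list 6 were at 0, among them the fibrinogen chains. Osteopontin, Spp1, rose by 3.07 ± 0.31, fibronectin, Fn1, by 2.82 ± 0.67 and complement C3, whose fragment iC3b binds Mac-1, by 1.73 ± 0.16 in the authors' deposited table. Icam2, which binds LFA-1, fell by 1.57 ± 0.17 in the authors' deposited table. Not all ligands of this kind fell, and 2 more are named here with their values known. Icam1 rose by 1.28 ± 0.19 (adjusted p = 1.2e-10) and Vcam1 had 0.14 ± 0.14 (adjusted p = 0.43) by the authors' deposited table. The error of Fn1 is wide for its base mean of 3483 in the authors' deposited table.

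**Figure D5:**
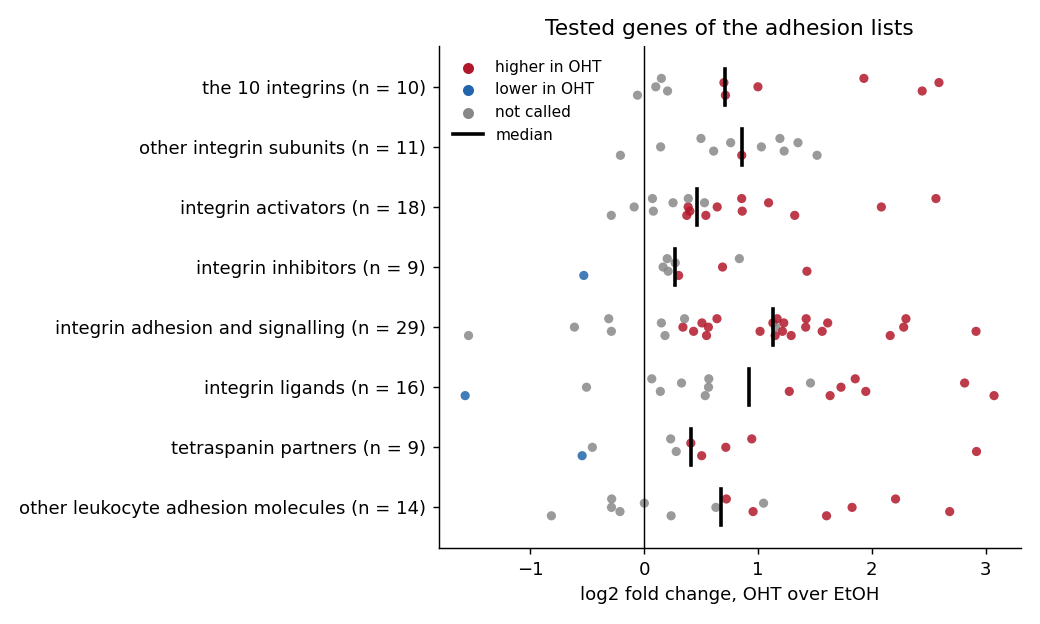
Log2 fold change, OHT over EtOH, of the tested genes of each list (points) with the list's median (bar). The 10 integrins have a median of 0.71, adhesion and signalling genes 1.13 and inhibitors 0.27, and 3 genes of the 7 lists below the integrins are marked lower in OHT.

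The marker lists show how genes used as markers of cell identities changed beside the integrins. Their counts stand beside 25.5% higher and 23.4% lower of all tested genes. Of 13 tested neutrophil markers 13 were higher, with an implied sum of 812855 normalised reads in OHT and 198336 in EtOH, and of 14 monocyte and macrophage markers 13 were higher and 1 lower, with a sum of 298139 in OHT and 62138 in EtOH. The largest rises among neutrophil markers in the authors' deposited table were those of the formyl peptide receptor gene Fpr1 (4.45 ± 0.38) and the gelatinase gene Mmp9 (3.37 ± 0.22), and the most abundant, S100a9, rose by 1.75 ± 0.17. Among monocyte and macrophage markers in the authors' deposited table, the scavenger receptor gene Msr1 (4.39 ± 0.29) and Mertk (4.17 ± 0.38) rose most, and the most abundant, the lysozyme gene Lyz2, rose by 3.05 ± 0.55. Lyz2 alone held an implied 235036 of that list's sum in OHT and 28388 in EtOH. Ly6c2, which has near-identical copies, fell by 0.57 ± 0.17 in the authors' deposited table. Of 10 leukaemia and progenitor markers 2 were higher and 5 lower, with a sum of 74859 in OHT and 167747 in EtOH. Ptprc rose by 1.10 ± 0.12 and Spi1 by 0.71 ± 0.13 in the authors' deposited table. The granule enzyme genes Mpo and Elane fell by 2.37 ± 0.23 and 1.60 ± 0.17 in the authors' deposited table. Mpo held an implied 11147 of the sum in OHT and 57540 in EtOH, and Elane 25988 in OHT and 78678 in EtOH. The fall of the leukaemia and progenitor sum thus rests on these 2 genes. Ctsg and Prtn3, neutrophil granule enzyme genes that are on no list, are named after their values were seen. They fell by 2.56 ± 0.12 and 1.79 ± 0.19 in the authors' deposited table, so the neutrophil list does not stand for all neutrophil genes. Dendritic cell markers, set beside Itgax, gave 1 higher and 0 lower of 6 tested, with a sum of 1940 in OHT and 1524 in EtOH. The 1 was Clec9a (1.67 ± 0.74, adjusted p = 0.0499, base mean 3.91), and Irf8, the most abundant, had 0.29 ± 0.30 (adjusted p = 0.44) by the authors' deposited table. Megakaryocyte and platelet markers gave 3 higher and 0 lower of 9 tested, with a sum of 4463 in OHT and 1329 in EtOH. This share of higher calls is near that of all tested genes. The von Willebrand factor gene Vwf rose by 3.82 ± 0.20 (adjusted p = 6.9e-79) and Gp1bb by 2.17 ± 0.54, while Itga2b, the most abundant, had 1.19 ± 0.74 without a call in the authors' deposited table. Stromal and endothelial markers gave 2 higher of 4 tested (sum 266 in OHT and 173 in EtOH), which were Col1a1 (1.48 ± 0.55) and Acta2 (0.69 ± 0.30) in the authors' deposited table. Lymphoid and NK markers gave 1 higher of 2 tested (sum 288 in OHT and 385 in EtOH): Cd79a had 1.95 ± 0.71 at a base mean of 9.49 and Nkg7 had -0.49 ± 0.34 (adjusted p = 0.23) by the authors' deposited table, with Cd3e, Cd8a and Ms4a1 at 0. The sums take in every listed gene with a fold change, tested or not, and 2 of the dendritic cell markers had a fold without a p-value. The sums have no range over samples here, and the part of these cell identities in the rise of the integrins was not tested.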

How the data were processed

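Column-purified RNA went into TruSeq libraries (labels' protocols). The submitters' processing notes name build mm10 and, as tools, DESeq2, DESeq, HTSeq 0.9.1, STAR 2.7.2b and Trimmomatic 0.38.0. Annotation, strand setting and shrinkage are not stated. The 1 table holds the authors' comparison, with 0 columns of values per sample. The authors deposited a base mean, which is a signal in units of normalised reads, a log2 fold change and its standard error on the log2 scale. The deposited columns end with a Wald score and its p-value, raw and adjusted. The deposited score equalled fold over standard error to within 7.6e-08, and the adjusted p-value its Benjamini-Hochberg recomputation over the 13814 tested genes, with gaps of at most 2.3e-07.

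Without values per sample no new test was run: the authors' DESeq2 test across all genes, at an adjusted p under 0.05, gave every call. Intervals are 95%, the fold plus or minus its standard error times the normal quantile, and group means follow from base mean and fold. The deposited folds seem to be shrunken, so these understate changes of uncertain genes. Of 24221 rows, 6693 had a base mean of 0, 3663 a p-value without an adjusted one and 51 a fold without a p-value. Positions and exon lengths came from GENCODE M21 on GRCm38. Reads per library were solved for low base means. All 4645 genes with base means above 0 and up to 5 gave 1 solution in whole reads within 5e-09. The size factors were fitted on these same genes. The solving step was tried on simulated reads with these factors given, so that trial could not test the factors. Intervals rest on the authors' standard error, which includes the spread between samples.

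The integrins, the 14 gene lists and the motifs were chosen with earlier results of these data known. The text names all 10 integrins, Riok2, chromosome neighbours and, for each list, the largest rises and falls past the threshold and the highest base mean; other names are marked. Of 201 list entries 199 were found in the table, Adgre1 as Emr1. Python 3.11.15, pandas 2.3.3, numpy 2.4.6, scipy 1.17.1 and matplotlib 3.10.9 were used. Some genes counted in the lists and windows are not reported here by name, and 1 is left out of the plot in chromosome order.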

Additional observations from a re-analysis of the deposited data

How the results depend on the processing

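The 10 integrin folds kept their sign under both centrings, the only alternatives that change a fold. The count of 6 higher and 0 lower held when p-values were adjusted over every gene with one, when genes below a base mean of 100 were left out (which drops Itgad), and when folds were centred on the median of all tested genes (0.05) or of those with a base mean of at least 100 (-0.02). It was 5 at an adjusted p under 0.01, without Itgb7. It was 3 with a Bonferroni adjustment (Itgb2, Itgam and Itga5) and also 3 with a log2 fold change of at least 1 (Itgb2, Itgam and Itgax), where Itgb7 missed narrowly. Over the 7 lists of integrin pathway and adhesion genes, 54 higher and 3 lower became 33 and 1 with Bonferroni and 32 and 1 with the minimum fold, because both rules admit fewer genes. With Bonferroni the higher calls were 6 for activators, 1 for inhibitors, 3 for ligands and 1 for tetraspanins. No paired analysis was possible because the table holds no values per sample, and for the same reason leaving out a replicate was not run. Itgad had few reads and an interval that spans both directions. Wide errors of other subunits were not limited to those with few reads: Itga2b had 0.74 at a base mean of 1053 in the authors' deposited table.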

Other observations

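Surface molecules that organise integrins on the membrane or act beside them were listed too. Of 9 tetraspanins, membrane proteins that gather integrins into clusters, 5 were higher and 1 lower, with a median log2 fold change of 0.41. Over all tested genes the shares were 25.5% higher and 23.4% lower. Cd9 rose by 2.92 ± 0.18 and Cd151, a partner of laminin-binding integrins, by 0.95 ± 0.21 in the authors' deposited table. Tspan32 fell by 0.55 ± 0.16, and Cd63, the most abundant, had 0.28 ± 0.17 (adjusted p = 0.17) by the authors' deposited table.

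Of 16 other leukocyte adhesion molecules 14 were tested. Of these 6 were higher and 0 lower, beside 25.5% and 23.4% of all tested genes, with a median of 0.68. The SLAM family receptor Cd84 rose by 2.69 ± 0.29, Ceacam1 by 2.21 ± 0.20 and the siglec Cd33 by 1.83 ± 0.18 in the authors' deposited table.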
